A study of Homo sapiens with 8 samples.

Results

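This section describes 7 target genes of the tumour suppressor p53 in cisplatin-resistant derivatives of A2780, a human ovarian carcinoma cell line that is widely used as a line with functional p53. The genes are CDKN1A, PHLDA3, PPM1D, DDB2, SESN2, MDM2 and GADD45A, and they were found as the clones of the array whose gene name is the current symbol or an older one. SESN2 is listed as SES2 and was taken from its clone title, sestrin 2. The 7 genes were represented by 8 clones, with 2 clones for CDKN1A and 1 for each other gene, of 13340 clones and 9932 genes in the table. All 8 clones were among the 13148 that could be fitted, and 6 of them had a value on all 8 arrays.

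Each array compared total RNA of 1 derivative, labelled with Cy5, with total RNA of the parental line CPR00, labelled with Cy3, on spotted cDNA clones. The derivatives were CPR20, CPR40, CPR55 and CPR70, all described by the submitters as cisplatin resistant, against the cisplatin-sensitive CPR00, and each had 2 arrays. All lines were grown under ordinary culture conditions, and the labels name no cisplatin exposure at harvest and do not say whether a derivative is a single clone. They give no meaning for the number in a derivative's name, and nothing states that a derivative's arrays used separate cultures, so the spread between arrays may be technical. The dyes were not exchanged on any array, so an effect of the dye on a clone and a difference between derivative and parental line cannot be told apart.

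p53 is a transcription factor that is stabilised after DNA damage, including the platinum adducts that cisplatin leaves on DNA, and that raises the transcription of genes for cell cycle arrest, DNA repair, metabolic restraint and cell death. Some of its targets act back on it: MDM2 marks p53 for degradation and PPM1D removes activating phosphates from p53 and from the kinases upstream of it. Many of these genes are also transcribed at a basal level that depends on p53 in cells that have not been damaged, and the arrays measured that state, with no damaging treatment named in the labels.

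Between 12759 and 14373 clone spots were found per array. A clone was called above background in a channel when its intensity exceeded the median of the empty spots of that array by 2.6 scaled median absolute deviations, which held for 26.4% to 60.3% of clone spots in the derivative channel and 20.3% to 41.9% in the parental channel. Of 14 clones for epithelial, mesenchymal and ovarian carcinoma markers, the mesenchymal VIM and the epithelial KRT18 were above background in the derivative channel on all 8 arrays. WT1, CLDN3 and CLDN4 were above it on 0 arrays in either channel, and PAX8, KRT7, KRT8 and KRT19 on at most 1 array in each channel. EPCAM (log2 ratio 0.82, above background in the derivative channel on 2 arrays) and VIM (0.48) were higher in the derivatives, and 12 clones of that list did not pass. Of all clones, 6.37% were higher. EPCAM was called in 11 of 21 and VIM in 8 of 22 alternative ways of processing, and with the replicate number as a random block 0 of the 14 clones passed. Of 13 clones for blood, endothelial, liver and muscle markers, VWF and 1 of 3 ALB clones were above background in the derivative channel on 8 arrays each. That ALB clone was higher (0.93) while the other ALB clones stood at -0.32 and -0.28. Its rise was called in 18 of 22 alternative ways of processing, but with that random block 0 of the 13 clones passed. The other 11 clones, among them CD14, PECAM1, CDH5, HBB and DES, were above background on 0 to 2 arrays in the derivative channel.

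RefSeq (assembly GRCh38.p14) places SESN2 on chromosome 1 at 28259518 to 28282491, GADD45A on chromosome 1 at 67685201 to 67688334 and PHLDA3 on chromosome 1 at 201464278 to 201469188. CDKN1A lies on chromosome 6 at 36676463 to 36687332, DDB2 on chromosome 11 at 47214454 to 47239217, MDM2 on chromosome 12 at 68808172 to 68850686 and PPM1D on chromosome 17 at 60600193 to 60666280. The position of each cDNA clone within its transcript was not analysed here. The RefSeq promoter table held 5 of the 7 genes, CDKN1A, PPM1D, DDB2, SESN2 and MDM2. The 250 bases upstream of the start are printed for CDKN1A and DDB2, a large and a small fall, and for MDM2, for which no fall was called. All are on the plus strand, at chr6:36678464-36678713, chr11:47214204-47214453 and chr12:68807922-68808171. For CDKN1A the start used, and with it the window, lies inside the gene span given above. For DDB2 and MDM2 the start is the first base of the span. Capitals mark the GC box GGGCGG and the CCAAT box, each searched on both strands.
CDKN1A: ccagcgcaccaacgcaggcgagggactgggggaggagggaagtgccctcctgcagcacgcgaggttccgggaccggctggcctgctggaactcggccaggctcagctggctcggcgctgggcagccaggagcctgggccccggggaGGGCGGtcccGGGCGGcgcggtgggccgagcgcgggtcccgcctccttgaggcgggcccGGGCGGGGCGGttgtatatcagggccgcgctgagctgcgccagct
DDB2: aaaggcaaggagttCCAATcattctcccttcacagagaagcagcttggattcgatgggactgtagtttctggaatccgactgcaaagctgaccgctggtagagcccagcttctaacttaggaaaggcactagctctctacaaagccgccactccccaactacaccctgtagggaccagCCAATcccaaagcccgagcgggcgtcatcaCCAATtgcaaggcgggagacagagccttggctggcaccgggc
MDM2: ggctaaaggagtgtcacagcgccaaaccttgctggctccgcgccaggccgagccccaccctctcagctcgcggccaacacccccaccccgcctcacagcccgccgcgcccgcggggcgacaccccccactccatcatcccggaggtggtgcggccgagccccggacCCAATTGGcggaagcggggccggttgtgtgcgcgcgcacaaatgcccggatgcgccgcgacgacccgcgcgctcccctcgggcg

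The CDKN1A window held 4 GC boxes, the last pair of which share a letter, and 0 CCAAT boxes. The DDB2 window held 3 CCAAT boxes and 0 GC boxes, and the MDM2 window held 2 CCAAT boxes, 1 on each strand, which overlap. PPM1D had 2 GC boxes and 1 CCAAT box, and SESN2 had 2 of each. In the 250 bases before the start, 42.307% of 27305 RefSeq promoters held a GC box and 33.038% a CCAAT box. The p53 half-site was in 0 of the 5 windows of 250 bases, against 5.53% of all promoters. A pair of half-sites with at most 3 of 20 letters off was in 0 of 5, against 1.959%. The known p53 sites of CDKN1A lie further upstream and those of MDM2 lie in its first intron, outside these windows. The share of G and C was 76.4% in CDKN1A, 74.4% in MDM2, 70.4% in PPM1D, 65.6% in SESN2 and 55.6% in DDB2, against a median of 58% over all promoters. MDM2 had CCAAT boxes like PPM1D, DDB2 and SESN2, and its share of G and C lay between those of PPM1D and CDKN1A.

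In the mean of the 4 derivatives, the brighter CDKN1A clone, PHLDA3, PPM1D, SESN2 and DDB2 fell relative to the parental line, and the dimmer CDKN1A clone, MDM2 and GADD45A did not pass the test. Thus 5 of 8 clones, standing for 5 of 7 genes, were lower and 0 higher, at a Benjamini-Hochberg adjusted p under 0.05 over all clones in limma. Of all clones, 4.63% were lower and 6.37% higher, 11% in either direction. The median log2 ratio was -0.98 over the 8 clones, against 0.00 over all clones. The same 5 clones were below 0 on all 8 arrays, as were 7.03% of clones with 8 values. The parental line is the other channel of every array, so these tests leave out its own spread. The 8 clones are shown array by array in the plot of log2 ratios, and the brightness behind each ratio in the plot of both channels.

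**Figure D1:**
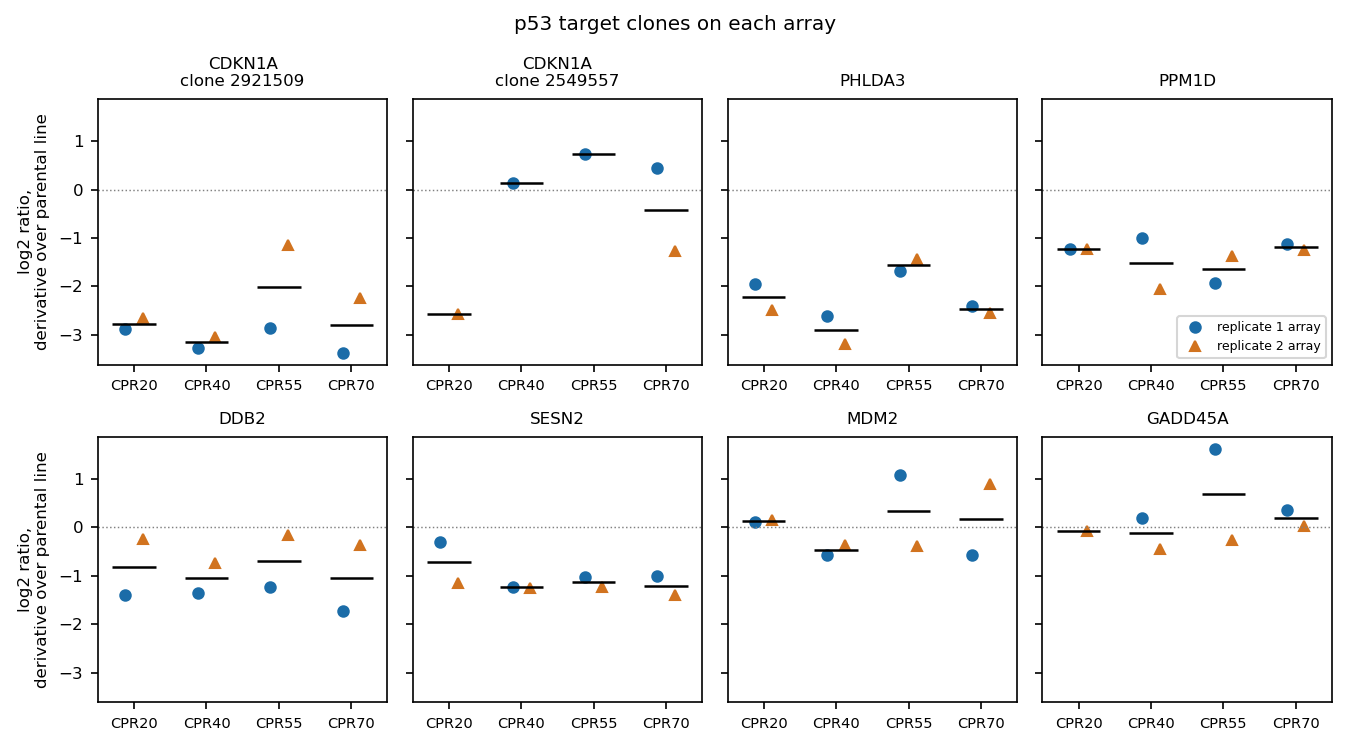
Normalised log2 ratio of derivative over parental line for each of the 8 clones (vertical axis) in CPR20, CPR40, CPR55 and CPR70 (horizontal axis). Circles are replicate 1 arrays, triangles replicate 2 arrays, and bars the mean of a derivative. CDKN1A clone 2921509, PHLDA3, PPM1D, DDB2 and SESN2 lie below 0 on every array, the DDB2 circles lie below the DDB2 triangles, and MDM2 and GADD45A scatter about 0.

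CDKN1A encodes p21, the inhibitor of cyclin-dependent kinases through which p53 halts the cell cycle. For clone 2921509 (AW341769) the log2 ratio over the parental line was -2.88 and -2.66 in CPR20, -3.28 and -3.04 in CPR40, -2.87 and -1.14 in CPR55, and -3.37 and -2.23 in CPR70. The replicate 2 array of CPR55 stood apart as the smallest fall, and the others lay together. On that array the parental channel, at 125.6, was not above background either. On the log2 scale the mean of the clone fell by 2.68 ± 0.21 (SE, 8 arrays, 95% interval -3.16 to -2.21, adjusted p = 0.000293 in limma). Its deposited intensity was 32.1 to 314.5 in the derivative channel, against 125.6 to 1984 in the parental channel, and on each array the parental channel was the brighter. The derivative channel was above background on 0 of 8 arrays and the parental channel on 7, so the derivatives have only an upper bound. With the derivative channel set to the background level of each array, CDKN1A was at least 2.95-fold lower in the mean. That mean includes the replicate 2 array of CPR55, where the parental channel was dim too.

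The other CDKN1A clone, 2549557 (AI952615), was found on 5 arrays only. Its log2 ratios were -2.57 on the replicate 2 array of CPR20, 0.13 and 0.75 on the replicate 1 arrays of CPR40 and CPR55, and 0.44 and -1.27 on the arrays of CPR70. The 5 values lie on both sides of 0 and the mean, -0.53 ± 0.30 (SE, adjusted p = 0.337 in limma), did not pass. Its intensity was 39.3 to 252.3 in the derivative channel, above background on 0 arrays, and 147.5 to 299 in the parental channel, above background on 1 array. That 1 array was the replicate 2 array of CPR20 (299, against a level of 296.7), where the brighter clone stood at -2.66. On the other arrays neither channel was above background, so the dimmer clone cannot be set against the brighter there. The 2 clones differ in the mean, and the fall of CDKN1A rests on 1 clone.

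PHLDA3 encodes a pleckstrin-homology protein that competes with the kinase AKT for membrane lipids and so restrains AKT signalling. Its log2 ratio was -1.94 and -2.49 in CPR20, -2.61 and -3.19 in CPR40, -1.68 and -1.43 in CPR55, and -2.40 and -2.54 in CPR70. Both arrays of CPR40 lay below every other array and both arrays of CPR55 above every other. The mean fell by 2.29 ± 0.12 (SE, 8 arrays, 95% interval -2.56 to -2.01, adjusted p = 5.44e-05 in limma). Intensities ran from 55.5 to 393.5 in the derivative channel, above background on 2 arrays, and from 368.9 to 1759 in the parental channel, above background on all 8. PHLDA3 had the smallest adjusted p and the smallest standard error of the 8 clones, and it was the only 1 of them measured above background in the parental line on every array.

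**Figure D2:**
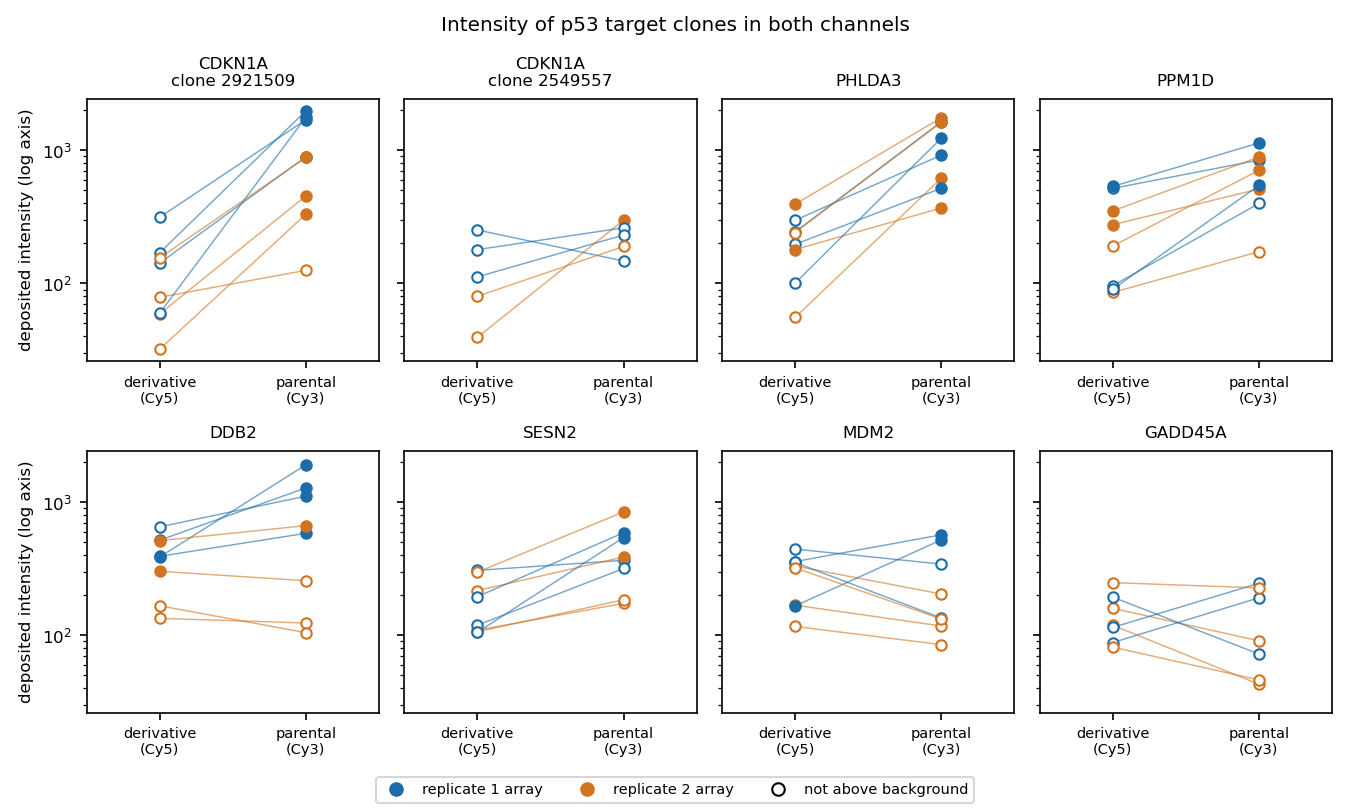
Deposited intensity of each clone (vertical axis, log scale) in the derivative channel, Cy5, and the parental channel, Cy3, of each array, joined by a line per array. Open points were not above background. For CDKN1A clone 2921509 the derivative points are all open and 7 of 8 parental points filled, for PHLDA3 all 8 parental points are filled, and for GADD45A every point is open.

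PPM1D, also called WIP1, is the phosphatase that switches the p53 response off. Its log2 ratio was -1.22 and -1.23 in CPR20, -0.99 and -2.06 in CPR40, -1.92 and -1.38 in CPR55, and -1.13 and -1.25 in CPR70. The 4 derivatives overlap, with the widest gap between the 2 arrays of CPR40. On the log2 scale PPM1D fell by 1.40 ± 0.14 (SE, 8 arrays, 95% interval -1.72 to -1.07, adjusted p = 0.000991 in limma), 2.63-fold lower. Intensities were 85.5 to 536.2 in the derivative channel, above background on 3 arrays, against 173.3 to 1137 in the parental channel, above background on 6.

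SESN2 encodes sestrin 2, which lowers mTORC1 signalling and protects against oxidative stress. Its log2 ratio was -0.29 and -1.15 in CPR20, -1.23 and -1.24 in CPR40, -1.02 and -1.22 in CPR55, and -1.01 and -1.39 in CPR70. Apart from the replicate 1 array of CPR20, the arrays lay within a narrow band. Neither channel was above background on that array, on the replicate 2 array of CPR40 or on either array of CPR55. SESN2 fell by 1.07 ± 0.12 (SE, 8 arrays, 95% interval -1.36 to -0.78, adjusted p = 0.0019 in limma). The derivative channel was above background on 0 arrays and the parental channel on 4. With the derivative channel set to the background level of each array, SESN2 was 1.32-fold lower in the mean. That mean includes the arrays where the parental channel was dim too, so the fold is not a firm lower bound.

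DDB2 recognises DNA lesions for nucleotide excision repair, the pathway that also removes platinum adducts. Its log2 ratio was -1.40 and -0.23 in CPR20, -1.36 and -0.73 in CPR40, -1.23 and -0.16 in CPR55, and -1.73 and -0.37 in CPR70, the replicate 1 array first. In each derivative the replicate 1 array was the lower, and the 4 replicate 1 arrays (-1.73 to -1.23) do not overlap the 4 replicate 2 arrays (-0.73 to -0.16). The mean fell by 0.90 ± 0.21 (SE, 8 arrays, adjusted p = 0.0336 in limma), 1.87-fold lower. Fitted alone, the replicate 1 arrays gave -1.43 (adjusted p = 0.00559 in limma) and the replicate 2 arrays -0.37 (0.094), and with the replicate number as a random block the adjusted p was 0.0758. With 1 array left out at a time the adjusted p ran from 0.0304 to 0.102, and the call was lost without the replicate 1 array of CPR20, CPR40, CPR55 or CPR70 and without the replicate 2 array of CPR40. On the replicate 1 arrays the parental channel was above background 4 times in 4, and on the replicate 2 arrays 1 time in 4. DDB2 was measured as lower in the replicate 1 set and was near the background level of the parental channel in most of the replicate 2 set. On the replicate 2 array of CPR70, at -0.37, both channels were above background (512.1 and 665, against levels of 332.7 and 641). The cause of the gap between the 2 sets was not tested.

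The other 4 clones that fell did so within both sets of arrays. The brighter CDKN1A clone stood at -3.10 on the replicate 1 arrays (adjusted p = 0.000947) and -2.27 on the replicate 2 arrays (0.00775). PHLDA3 stood at -2.16 (0.00446) and -2.41 (0.00504), PPM1D at -1.32 (0.0167) and -1.48 (0.00477), and SESN2 at -0.89 (0.0407) and -1.25 (0.00166), in the same order and from limma.

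MDM2, the ubiquitin ligase that limits p53, is itself a classical p53 target. Its log2 ratio was 0.11 and 0.16 in CPR20, -0.57 and -0.36 in CPR40, 1.08 and -0.39 in CPR55, and -0.57 and 0.91 in CPR70. It was lower on 4 arrays and higher on 4, and the 2 arrays of CPR55 and of CPR70 disagree in sign. The mean was 0.05 ± 0.21 (SE, 8 arrays, 95% interval -0.43 to 0.52, adjusted p = 0.919 in limma). The interval does not reach the size of the falls of DDB2, SESN2 or PPM1D, but the clone was above background on only 3 arrays in the derivative channel and 2 in the parental channel. On the CPR40 and CPR70 replicate 1 arrays, where both channels were above background, its ratio was -0.57 each time.

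GADD45A encodes a stress sensor with roles in growth arrest and DNA repair. It was found on 7 arrays, with log2 ratios of -0.06 in CPR20, 0.20 and -0.44 in CPR40, 1.63 and -0.25 in CPR55, and 0.36 and 0.02 in CPR70. The values scatter about 0 and the highest is a replicate 1 array of CPR55. The mean was 0.17 ± 0.24 (SE, adjusted p = 0.695 in limma). Both channels were below the background level on all 7 arrays, with intensities of 81.1 to 247.7 in the derivatives and 42.7 to 244.9 in the parental line, so no difference was detectable at this signal.

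Each derivative was then set against the parental line, in the same fit. In CPR20 the brighter CDKN1A clone (-2.77, adjusted p = 0.0392 in limma) and PHLDA3 (-2.22, 0.0104) fell, 2 of 8 clones, against 0.183% of all clones. CPR40 had the same 2 clones lower, CDKN1A by at least 3.25-fold (-3.16, adjusted p = 0.0231 in limma) and PHLDA3 by at least 3.56-fold (-2.90, 0.00279), against 0.289% of all clones. In CPR55 only PHLDA3 passed (-1.56, adjusted p = 0.0341 in limma), 1 of 8, against 0.213%. In CPR70 CDKN1A was lower by at least 4.11-fold (-2.80, adjusted p = 0.0204 in limma) and PHLDA3 by at least 4.56-fold (-2.47, 0.00464), 2 of 8, against 0.586%. The bound for CDKN1A in CPR20 was 2.89-fold. In CPR55 CDKN1A stood at -2.005 and did not pass (adjusted p = 0.102), nor did it with the replicate number as a random block (0.0771). It passed with that number as a fixed block (0.0422) and, at -2.87, without the replicate 2 array (0.0354), where the lone array is assumed to vary like those of the other derivatives. With 1 of the 8 arrays left out at a time, CDKN1A lost its call 6 times in CPR20, 4 times in CPR40 and 2 times in CPR70, with adjusted p of up to 0.381, and PHLDA3 lost it 2 times in CPR20, 0 times in CPR40, 6 times in CPR55 and 1 time in CPR70, with up to 0.424.

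PPM1D, SESN2 and DDB2 were below 0 on both arrays of each derivative and passed in no single derivative. PPM1D stood at -1.22 in CPR20, -1.52 in CPR40, -1.65 in CPR55 and -1.19 in CPR70, with adjusted p of 0.056 to 0.145 in limma. SESN2 stood at -0.72, -1.23, -1.12 and -1.20 in the same order, with adjusted p of 0.0711 to 0.373, and DDB2 at -0.81, -1.05, -0.69 and -1.05, with 0.321 to 0.626. With the replicate number as a fixed block, SESN2 also passed in CPR40 (adjusted p = 0.0419) and CPR70 (0.032) and DDB2 in CPR70 (0.0378). With CDKN1A in CPR55, this made the counts 3 in CPR40, 2 in CPR55 and 4 in CPR70. Over the whole table that fixed block called 205 clones in CPR40, 172 in CPR55 and 486 in CPR70. With the replicate number as a random block, SESN2 in CPR40 (adjusted p = 0.0827) and CPR70 (0.0582) and DDB2 in CPR70 (0.221) did not pass. Both arrays lay below 0 for 5 clones in CPR20, 6 in CPR40, 5 in CPR55 and 5 in CPR70, where 28%, 28.3%, 27.4% and 29.8% of all clones with 2 values did so. The median over the 8 clones was -1.02 in CPR20, -1.14 in CPR40, -0.91 in CPR55 and -1.12 in CPR70, against 0.00, -0.01, 0.00 and -0.01 over all clones.

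The falls did not differ detectably between derivatives. In the F-test of any difference among the 4, 0 of 8 clones and 0% of all clones passed in limma, and PHLDA3 had an unadjusted p of 0.0221 (adjusted p = 0.9999), the only 1 of the 8 under 0.05. For CPR70 minus CPR20, 0 of 8 clones and 0% of all clones passed after adjustment. The difference was -0.03 for the brighter CDKN1A clone (95% interval -1.38 to 1.33), -0.26 for PHLDA3 (-1.03 to 0.51), 0.03 for PPM1D (-0.88 to 0.95), -0.48 for SESN2 (-1.30 to 0.33) and -0.24 for DDB2 (-1.63 to 1.16). The dimmer CDKN1A clone had an unadjusted p of 0.0401 from 3 arrays. For CDKN1A and DDB2 these intervals allow differences of over 1 on the log2 scale, so the values do not show that the derivatives were alike. A dye effect of a clone cancels in these differences.

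The rest of the p53 programme was taken from lists that cover 78 further targets, of which 47 genes with 50 clones were measured. Of the 50 clones 1 was lower, 4 were higher and 45 did not pass in the mean of the derivatives, with a median log2 ratio of -0.03. Of all clones, 4.63% were lower and 6.37% higher. The parental channel was above background on fewer than 4 arrays for 38 of the 50, where a fall was hard to see (0 lower, 4 higher, median 0.06). The remaining 12 had 1 lower, 0 higher and a median of -0.24, but a filter on the parental channel favours clones brighter there. BTG1, an antiproliferative gene of the same family as BTG2, fell by 1.14 ± 0.13 (SE, adjusted p = 0.00182 in limma) and was lower on 8 of 8 arrays. The clones that rose were LIF, a cytokine (2.10, adjusted p = 0.000664), 1 clone of the peptide transporter TAP1 (1.65, 0.00133, at least 1.22-fold), the BH3-only gene PMAIP1 (1.07, 0.00252) and TNFAIP8 (0.74, 0.0323). The parental channel was above background on 0 arrays for these clones of TAP1, PMAIP1 and TNFAIP8 and on 2 for LIF. With that channel raised to the background level, PMAIP1 (-0.43) and TNFAIP8 (-0.35) were no longer above 0, so neither rise has a lower bound. PMAIP1 was called in 20 and TNFAIP8 in 12 of 22 alternative ways of processing. The other TAP1 clone, above background in both channels on 8 arrays, stood at -0.34 and did not pass. The plot of p53 target clones by role gives all of these.

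**Figure D3:**
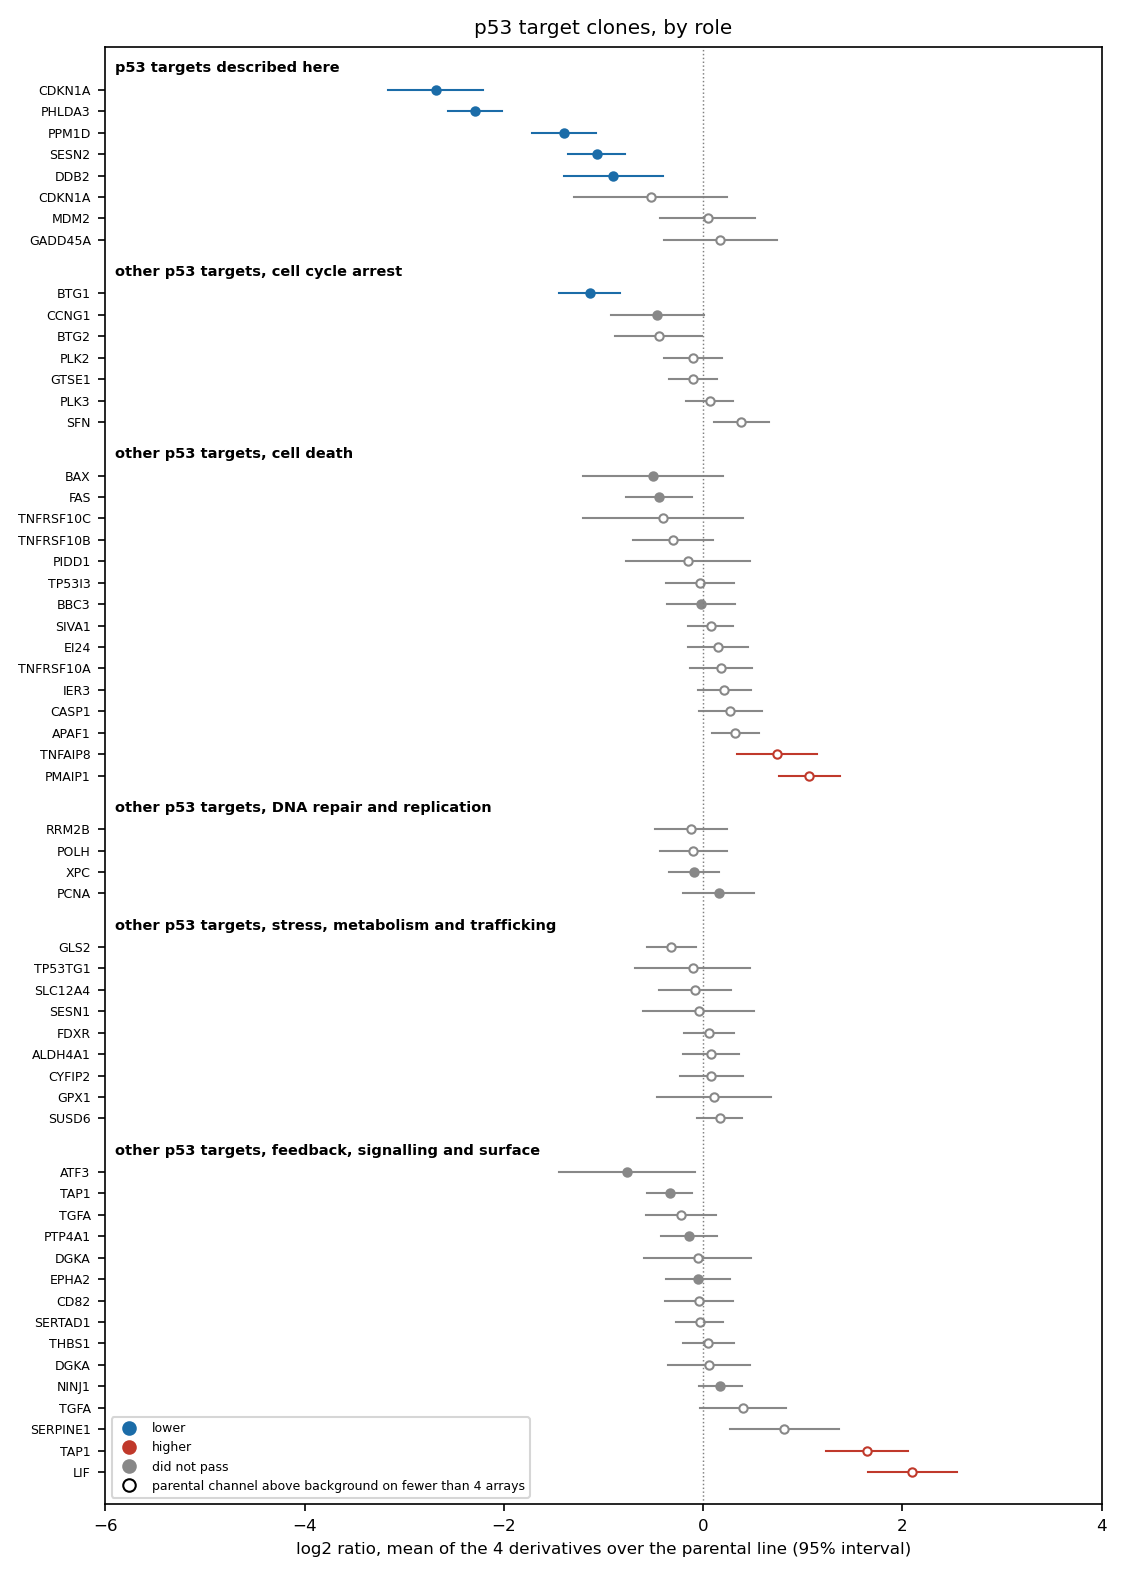
Log2 ratio of the mean of the 4 derivatives over the parental line (horizontal axis, points, with 95% intervals) for the 8 clones and for 50 clones of other p53 targets, grouped by role (vertical axis). Blue clones were lower, red clones higher and grey clones did not pass, and open points were above background in the parental channel on fewer than 4 arrays. The 5 lowest of the 8 clones and BTG1 are blue, and LIF, TAP1, PMAIP1 and TNFAIP8 are red and open.

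By role, the cell cycle list had 1 of 7 clones lower and 0 higher, the cell death list 0 of 15 lower and 2 higher, the DNA repair and replication list 0 of 4 either way, the stress and metabolism list 0 of 9 either way, and the feedback, signalling and surface list 0 of 15 lower and 2 higher. These small lists stand beside 4.63% lower and 6.37% higher over all clones. Several well-known targets did not pass. CCNG1, an atypical cyclin and strong p53 target, stood at -0.46 (adjusted p = 0.196 in limma), the death receptor FAS at -0.44 (0.0919), the pro-apoptotic BAX at -0.50 (0.34), the stress factor ATF3 at -0.76 (0.147), the BH3-only BBC3 at -0.02 (0.951), the repair gene XPC at -0.09 (0.65) and the replication clamp PCNA at 0.16 (0.57). BAX lay below 0 on 7 arrays and at 2.61 on the replicate 1 array of CPR55, and it was called in 2 of 22 alternative ways of processing.

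Among regulators of p53, the acetyltransferases EP300 (-0.45, adjusted p = 0.0222 in limma) and KAT5 (-0.39, 0.0452) were lower in the mean of the derivatives, each on 8 of 8 arrays. When each array was centred on its median in place of loess, neither passed, and over 22 alternative ways of processing EP300 was called in 12 and KAT5 in 7. MDM4, the relative of MDM2 that inhibits p53, stood at -0.03 with both channels dim, and the kinases ATM, ATR, CHEK1 and CHEK2 at -0.21, 0.38, -0.09 and -0.20 did not pass.

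Paralogs were examined because a cDNA clone can bind transcripts of related genes. Of 15 clones 1 was lower and 1 higher, against 4.63% and 6.37% of all clones. PPM1G, a phosphatase related to PPM1D, fell by 0.78 (adjusted p = 0.00451 in limma), and 1 clone of GADD45B, a relative of GADD45A, with its parental channel above background on 0 arrays, rose by 0.60 (0.0266) while its other clone stood at 0.19. The GADD45B rise was called in 12 of 22 alternative ways of processing, and not with the replicate number as a random block. CDKN1B and the 2 clones of CDKN1C, which encode the other inhibitors of the p21 family, stood at 0.38, 0.47 and -0.24 and did not pass. DDB1, the partner of DDB2 in lesion recognition, stood at 0.06, SESN1 at -0.04, PHLDA1 at 0.38 and PHLDA2 at 0.02.

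Of the cyclins and kinases that p21 binds, counted together with PCNA, 3 of 15 clones were lower and 0 higher, with a median of -0.25. CCND2, cyclin D2, fell by 1.91 ± 0.16 (SE, adjusted p = 0.000428 in limma), the mitotic kinase CDK1 by 0.79 (0.00583) and the G1 kinase CDK4 by 0.60 (0.0106). Among genes that p53 is known to repress through p21 and the DREAM complex, 2 of 40 clones were lower (CENPF, -0.77, and CDK1), 1 was higher (CDC20, 0.45, adjusted p = 0.0467) and 37 did not pass, with a median of 0.00. The CDC20 rise was called in 6 of 22 alternative ways of processing. Both lists stand beside 4.63% lower and 6.37% higher over all clones.

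Of clones of other named genes, the 5 whose values lay nearest to those of the brighter CDKN1A clone, by the root mean square difference over 8 arrays among 9191 candidates, were MGC3047, FLJ20128, FLJ21562, P8 and CD99, with names as the table lists them except CD99, listed there as MIC2. The CDKN1A clone was above background on 0 arrays in the derivative channel, so these distances rest on ratios that are bounds and give the 5 no order. All 5 were lower in the mean, with log2 ratios of -3.20 to -2.03, which follows from how they were chosen. For FLJ20128 both channels were above background on 8 arrays, whereas for MGC3047 the derivative channel was above it on 0. Within these 8 arrays the correlation between clones of the 7 genes was 0.77 for the brighter CDKN1A clone with DDB2, 0.56 with PHLDA3, -0.01 with PPM1D and -0.26 with SESN2. These are descriptions over 8 arrays that share the parental RNA and fall into 2 sets, and the CDKN1A and DDB2 values share the difference between those sets.

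**Figure D4:**
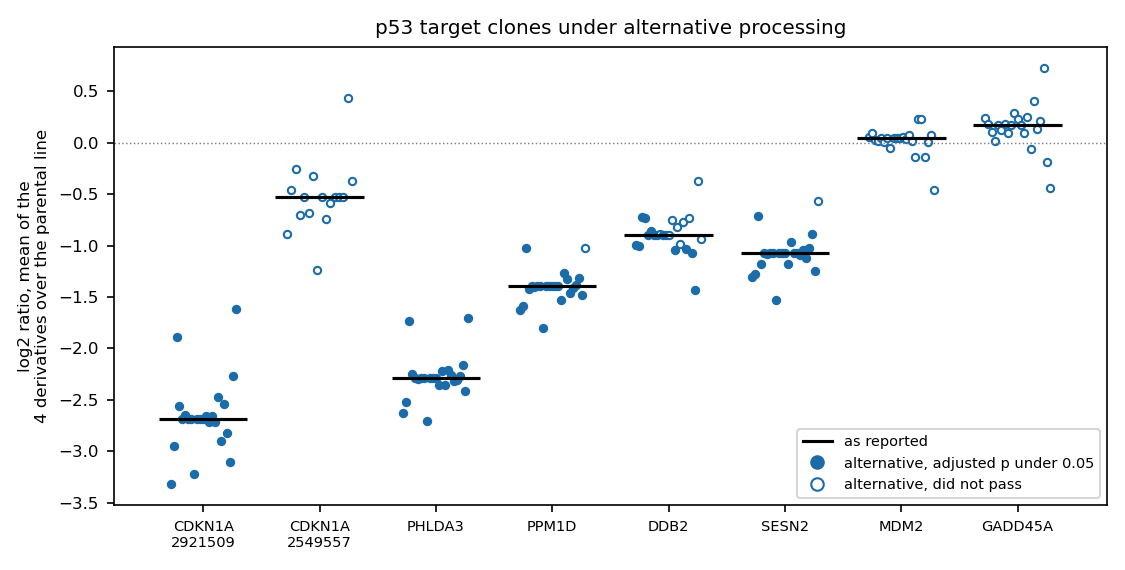
Log2 ratio of the mean of the 4 derivatives over the parental line (vertical axis) for each clone (horizontal axis) as reported, black bar, and under alternative processing, points, filled where the adjusted p was under 0.05. The points of CDKN1A clone 2921509 and PHLDA3 are all filled, PPM1D and SESN2 have 1 open point each, DDB2 has open and filled points, and the points of CDKN1A clone 2549557, MDM2 and GADD45A are open.

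The direction and the call in the mean held in 22 of 22 alternative ways of processing for the brighter CDKN1A clone (-3.32 to -1.89), PHLDA3 (-2.70 to -1.73), PPM1D (-1.80 to -1.02) and SESN2 (-1.53 to -0.71), as the plot of alternative processing shows. DDB2 kept its direction in 22 and its call in 14. With every dim channel raised to the background level of its array, an alternative chosen after the data were seen, CDKN1A (-1.61, adjusted p = 0.016 in limma) and PHLDA3 (-1.70, 0.00609) still passed, and PPM1D (-1.02, 0.0543), SESN2 (-0.57, 0.122) and DDB2 (-0.94, 0.0643) did not.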

How the data were processed

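RNA of 4 derivatives, 2 arrays each, was measured against the parental line on 8 two-colour spotted cDNA arrays. Per the file headers, the authors deposited a red and a green intensity on a linear scale, a calibrated ratio and a spot area (a further measure, with no unit stated) for each of 15360 spots. The deposited ratio equals the red over the green intensity multiplied by 1 constant for each array, 0.553 to 1.65 as recomputed. The deposited log2 values of the series equal the log2 of that ratio in 100% of 14182 matched spots per array, to within 0.01, with medians of -0.5 to 0.407, so neither is centred on 0. Scanner, image software and calibration method are not given in the sources used here, and there is no background column. A further 8 value columns, of 2 arrays with no sample, were not used.

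Intensities were raised by an offset of 50, spots of area 0 were made missing, and log2 ratios of derivative (Cy5) over parental line (Cy3) were normalised by loess within arrays, control spots at weight 0. Spots of a clone were averaged, clones of a gene kept apart. Group means were fitted with limma 3.58.1 in R 4.3.3 (4 residual degrees of freedom with complete values, prior 3.92), with Benjamini-Hochberg adjustment over 13148 clones at 0.05. Where a channel exceeded the background level on 0 arrays of a comparison, it was raised to that level and the fold is given as at least that size. Arrays with the other channel dim as well stayed in that mean, so for SESN2 the fold is not given as a bound.

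Of 9957 gene names, 5433 were current in RefSeq (GRCh38.p14), 2163 were older names of a single gene, 6 were settled by clone title, and 256 with several matches and 2099 unmatched were kept as listed. The genes named are all clones of the 7 genes, up to 4 clones that passed in each other list, p53 regulators and paralogs, and the 5 clones nearest to CDKN1A. Further clones that did not pass were named after their values were seen. A clone in the list of p53 regulators, and the counts that include it, are not reported here. The genes and lists were chosen with earlier results of these data known. Same-numbered arrays of different derivatives deviated together (correlation 0.257 to 0.369 over 10807 clones, all above 0.1), so the replicate number was used as a block in an alternative, as a fixed term and at random (correlation 0.248). The number of arrays limits the precision.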

Additional observations from a re-analysis of the deposited data

Results flagged for a closer look

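MDM2 stood at 0.13 in CPR20, with both arrays above 0, and at -0.46 in CPR40, with both arrays below 0. It is listed here because the 2 derivatives lay on opposite sides of 0 on all of their arrays. The difference between this pair of derivatives was not tested, and the test of any difference among the 4 derivatives gave an adjusted p of 0.9999 in limma.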

How the results depend on the processing

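The mean of the 4 derivatives called 1446 clones over the whole table, but 729 with median centring, 286 with the authors' calibrated ratio, 2548 with the replicate block as a fixed term, 606 with it at random, and 768 to 1209 with 1 array left out, the lowest without CPR20 replicate 2. The count of the 8 clones called lower in the mean, 5, was 4 or 5 in each of these. Counts in single derivatives were less stable, and the cause was not tested. In CPR20, 2 clones became 0 with no offset, median centring or the calibrated ratio and 1 with normexp or an offset of 200. In CPR40, 2 became 1 with normexp or an offset of 200, 4 with dim clones left out and 0 with the calibrated ratio. In CPR55, 1 became 0 with normexp, median centring, scaling between arrays or the calibrated ratio, and 2 with dim clones left out, an intensity trend or the replicate block. In CPR70, 2 became 1 with an offset of 200, 0 with the calibrated ratio and 4 with the replicate block. Calls over the whole table moved as well, in CPR70 to 5 with the calibrated ratio and 486 with the replicate block. With 1 array left out the counts were 0 to 2 in CPR20, 1 to 2 in CPR40, 0 to 2 in CPR55 and 0 to 2 in CPR70, and without CPR70 replicate 2 neither CDKN1A nor PHLDA3 passed in CPR70. The replicate block changed no other call among the 8 clones than those given with the results.

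Signs turned only for clones that did not pass. CDKN1A clone 2549557 turned in CPR40 with median centring (-0.16), the calibrated ratio (-0.62), the replicate block (-0.73) and the random replicate block (-0.0845), in CPR55 with the calibrated ratio (-0.0795) and the replicate block (-0.11), and in the mean on replicate 1 arrays alone (0.44). GADD45A turned in CPR20 with median centring (0.055), the calibrated ratio (0.29), the replicate block (0.41) and the random replicate block (0.17), in CPR40 without replicate 2 (0.20), in CPR55 without replicate 1 (-0.25), in CPR70 with the calibrated ratio (-0.15), and in the mean without CPR55 replicate 1 (-0.0608), on replicate 2 arrays alone (-0.18) and with dim channels at the background level (-0.44). MDM2 turned in CPR20 (-0.14) and in the mean (-0.0487) with the calibrated ratio, in CPR55 without replicate 1 (-0.39), in CPR70 without replicate 2 (-0.57), and in the mean without CPR55 replicate 1 or CPR70 replicate 2 (-0.14 each) and with dim channels at the background level (-0.46). With 1 array left out, GADD45A ranged from -0.25 to 1.63 in CPR55, and MDM2 from -0.39 to 1.08 in CPR55, from -0.57 to 0.91 in CPR70 and from -0.14 to 0.23 in the mean. Signal over background limits these 3 clones.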
